A study of Mus musculus with 9 samples.

Results

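Keratin and epithelial adhesion transcripts were followed across uteri exposed to media conditioned by human embryos. The genes are Krt5, Krt7, Krt8, Krt14, Krt18, Krt19 and Epcam, 7 of the 35930 mouse genes given a value, taken by symbol as a measure of how much epithelial RNA each library held. C57BL/6 females received 1 mg progesterone once and 10 mg/kg of β-estradiol per day for 3 days, and their uterine horns were then injected with 50 µl of medium. The control group received embryo culture medium that no embryo had conditioned. The competent group received medium pooled from 9 human embryos that were developmentally competent, and the arrested group medium pooled from 18 human embryos that were arresting. How long after injection the uteri were taken is not stated. Every female, controls included, was therefore immature, hormone-primed and injected. The treatment text gives an age of 25 days and the design text also gives 21 days for the profiled mice. Each group has 3 libraries made from 1 µg of total RNA of whole uterus, 9 in all. Whether each library stems from its own animal is stated nowhere in the labels or design text, so p-values measure the spread between these libraries, which may be technical.

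Keratins are the intermediate filament proteins of epithelial cells. A filament needs equal partners of type I (here Krt14, Krt18 and Krt19) and type II (here Krt5, Krt7 and Krt8), and unpaired keratin protein is degraded. Krt8 with Krt18, and Krt7 and Krt19, are typical of simple epithelia, such as the single layer that lines the uterine lumen and its glands, whereas Krt5 with Krt14 mark basal cells of stratified epithelia such as the lower genital tract and skin. Epcam is a transmembrane adhesion protein of most simple epithelia. In a hormone-primed uterus these transcripts come mainly from luminal and glandular epithelium, and stroma and smooth muscle express them at low level or not at all.

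The members lie in few places of the NCBIM37 build. Krt7 (chromosome 15: 101241474 to 101260744, plus strand), Krt5 (101537501 to 101543322, minus), Krt8 (101827142 to 101834773, minus) and Krt18 (101858647 to 101862457, plus) lie in the type II cluster, where Krt18 is the type I gene and 23873 bases separate it from Krt8. Krt19 (100002124 to 100009979, minus) and Krt14 (100064476 to 100068862, minus) lie in the type I cluster on chromosome 11. Epcam lies apart, on chromosome 17 from 88035319 to 88050446 on the plus strand.

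The 30 coding bases at the end of the rod domain are shown as a part that these keratins share to a large degree. Short reads from such a part could be credited to the wrong gene. Other parts were not ranked by how much they share. Capitals mark the 18 positions at which all 6 keratins have the same base. The sequences are from the GENCODE transcripts of NCBIM37, 5′ to 3′ on the strand of the gene.
Krt8: ACCTACcGcaagcTGCTGGAGGgggagGAg
Krt7: ACCTACcGcaagcTGCTGGAGGgcgagGAg
Krt5: ACCTACaGgaagcTGCTGGAGGgcgagGAg
Krt18: ACCTACcGccgctTGCTGGAGGatggaGAa
Krt19: ACCTACcGcagccTGCTGGAGGgccagGAa
Krt14: ACCTACcGccgtcTGCTGGAGGgagagGAc
The windows lie in exon 7 of Krt8 (15: 101828289 to 101828318), exon 7 of Krt7 (15: 101253887 to 101253916) and exon 7 of Krt5 (15: 101539312 to 101539341). For the type I genes they lie in exon 6 of Krt18 (15: 101861913 to 101861942), of Krt19 (11: 100002266 to 100002295) and of Krt14 (11: 100065427 to 100065456). The Krt7 window equals that of Krt8 at 29 of 30 bases, the Krt5 window at 27, and the Krt18 window at 21.

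Longer identical stretches were few. The longest run shared by the full transcripts of 2 of these keratins was 32 bases, between Krt19 and Krt14, followed by 30 between Krt8 and Krt7 and 29 between Krt8 and Krt5. Krt8 and Krt18 shared no run over 11 bases. Elsewhere in the genome, the coding sequence of Krt8 has a copy over its whole length on chromosome 7 (24142144 to 24143601, 97.7% identity), within the span of Nlrp4e, which was listed at 0 in every library. Krt18 has a copy covering 99.9% of its coding sequence on chromosome 13 (118246641 to 118247882, 90.4% identity) and another covering 83.9% on chromosome 1. Matches of at least 100 bases and 85% identity for Krt5, Krt14 and Krt19 lay at 9, 5 and 6 loci, all on the chromosome of the gene itself and mostly in other keratin genes. For the coding sequences of Krt7 and Epcam no such match was found. How the authors' alignment placed reads that match several sites is not given in the sources used here, so the values of Krt8 and Krt18 carry that uncertainty.

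Values are fragments per kilobase of transcript scaled to the mapped fragments of the library (FPKM), summed over the annotated transcripts of a gene. FPKM are divided by transcript length, so levels can be set side by side between genes. In order of mean over the 9 libraries, the members were Krt19 at 709.7 FPKM, Krt8 at 583, Krt18 at 403, Krt7 at 246, Epcam at 101.3, Krt14 at 0.968 and Krt5 at 0.256. On this summed scale Krt19 was above Krt8 in all 9 libraries, with a Krt8 to Krt19 ratio of 0.583 to 0.924. Krt8 and Krt18 changed places in 1 library. The lowest Krt18 value, 307 FPKM, was above the highest Krt7 value, 290.2, and the lowest Krt7 value, 193, above the highest Epcam value, 163. Krt14 and Krt5 overlapped, and Krt5 was the higher in control library 1 and competent library 2.

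**Figure D1:**
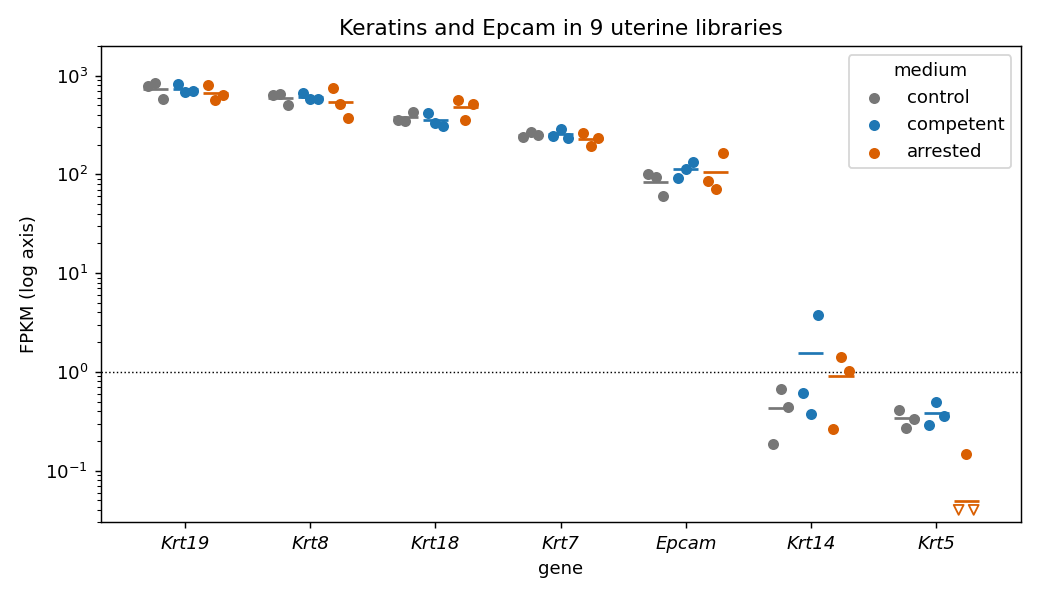
FPKM on a log axis for the 7 genes, 1 point per library (3 per group) with a short line at each group mean. Open triangles at the foot of the plot are libraries listed at 0, and the dotted line is the mean of 1 FPKM needed for testing. The 5 simple epithelial genes lie between 60.1 and 835 FPKM in every library, and Krt14 and Krt5 between 0 and 3.72.

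None of the 5 genes that averaged 1 FPKM or more passed the test in any of the 3 comparisons. In the limma test on log2(FPKM + 1), with Benjamini-Hochberg adjustment over the 13333 genes tested and a threshold of 0.05, 0 of 5 were called for arrested against control, where 0.045% of all genes were called. For competent against control the count was 0 of 5 beside 0.0375% of all genes, and for arrested against competent 0 of 5 beside 0.135%. At an unadjusted p under 0.05 the count was also 0 of 5 in each, beside 5.26, 5.17 and 10.9% of all genes. In no comparison did the 3 values of one group lie wholly above or below those of the other for any of the 5 genes. Such separation was seen for 8.84% of genes tested in arrested against control, 14.8% in competent against control and 16.5% in arrested against competent. With so few genes called in all, a count of 0 of 5 is near the background and is read here only through the intervals below. In bulk RNA, fewer cells of a type and less RNA per cell cannot be told apart.

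**Figure D2:**
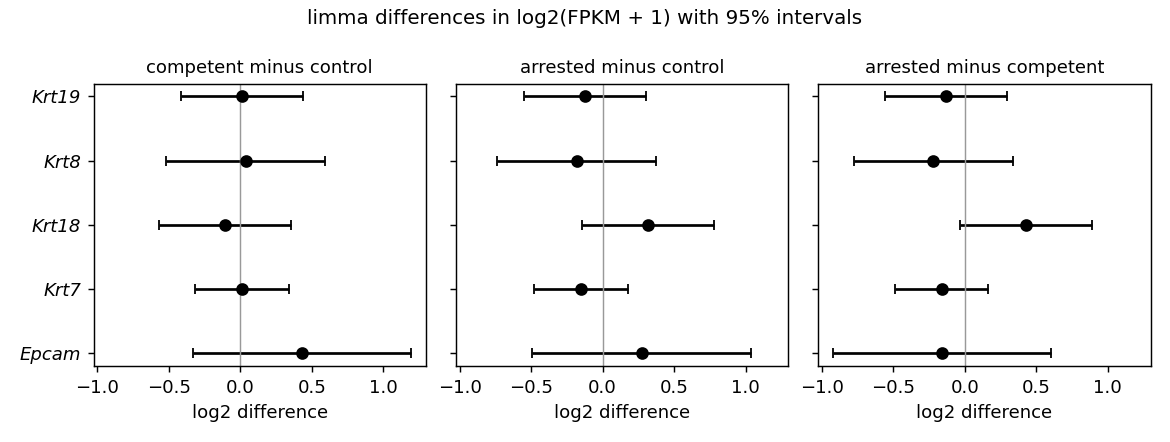
Differences in log2(FPKM + 1) between groups for the 5 tested genes, with bars for the 95% interval of the limma fit on 9 libraries (3 per group). Every interval crosses 0. The Krt18 interval for arrested minus competent, -0.03 to 0.89, comes closest to clearing it.

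Among the type II keratins, Krt8 was high in every library. Its values were 636, 649.6 and 503 FPKM in the controls, 661, 586 and 580.1 with competent medium, and 749, 515 and 369 with arrested medium. The arrested libraries held both the highest and the lowest value of the 9, so that group spread around the other 2 groups. The difference was -0.18 ± 0.24 (SE) on the log2 scale for arrested minus control (95% interval -0.74 to 0.37, limma adjusted p = 0.939). It was 0.04 ± 0.24 for competent minus control (-0.52 to 0.59) and -0.22 ± 0.24 for arrested minus competent (-0.77 to 0.34, limma adjusted p = 0.795). Arrested library 3 decides the sign: without it, arrested minus control was 0.07 and arrested minus competent 0.03.

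Krt7, the second type II keratin of simple epithelia, varied least of the members in summed FPKM. It was at 241, 269 and 249 FPKM in the controls, 243, 290.2 and 235 with competent medium, and 263, 193 and 232 with arrested medium. The groups overlapped, and the lowest value was that of arrested library 2. Its coefficient of variation over the 9 libraries was 11.04%, against a median of 18.4% for the 1156 genes that averaged 100 FPKM or more. Spread over exon bases, with the authors' assembled transcripts counted, it was 17.7%, above the 14.6% of Krt19. Arrested minus control was -0.15 ± 0.14 (95% interval -0.48 to 0.18) and competent minus control 0.01 ± 0.14 (-0.31 to 0.34). Arrested minus competent was -0.16 ± 0.14 (-0.49 to 0.16).

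The level of Krt7 depends on how the deposited estimate divided fragments among its transcripts. The annotated transcript of full coding length, 4094 bases long, was listed at 0 in 4 of the 9 libraries and reached at most 30.8 FPKM. Most of the sum came from a 642-base annotated transcript that holds the 5′ part of the gene, at 135 to 191 FPKM, and from a 3563-base transcript that retains an intron, at 57.3 to 81.0. Spread over all annotated exon bases of the gene, the same annotated transcripts give a Krt7 level of 41.4 to 70.0 in FPKM units. On that scale Krt7 was below Epcam, at 60.1 to 163, in 8 libraries and above it in control library 3, whereas on the summed scale it was above Epcam in all 9. For Krt8, Krt18 and Epcam, each with 1 annotated transcript, both scales are the same. Krt19 was lower on the exon scale, at 483 to 709. There it was below Krt8 in control library 3, competent library 2 and arrested libraries 1 and 2, and above it in the others. In arrested library 3 the authors' assembly also listed a Krt7 transcript of 10 exons at 82.5 FPKM, which is not in the sum. Its first 9 exons lie in Krt7, and its last (15: 101539362 to 101539524) lies in exon 7 of Krt5, a gene of the opposite strand, 20 bases from the Krt5 window shown above.

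Krt5, the basal type II keratin, was near the limit of detection in every library. It was at 0.410, 0.269 and 0.332 FPKM in the controls and 0.292, 0.498 and 0.355 with competent medium. With arrested medium it was listed at 0 in libraries 1 and 3 and at 0.147 in library 2, so the arrested values lay below all 6 others. The deposited intervals correspond to 7, 8 and 9 fragments in the controls and 4 in arrested library 2, and 3 fragments correspond to 0.1002 and 0.0998 FPKM in arrested libraries 1 and 3. Genes with a mean of 0.1 to 1 FPKM lay wholly lower in 4.49% of cases for arrested against control and 4.24% for arrested against competent. An exact two-sided permutation test, added after the values were seen, gave p = 0.1 for each of these 2 comparisons, the smallest value that 3 libraries against 3 can give, and p = 0.6 for competent against control. That p follows from the separation that prompted the test and shows no more than the separation itself. Over the 9 libraries the values rest on 0 to 10 fragments.

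Among the type I keratins, Krt19 had the highest mean of the members. Its values were 778, 835 and 575 FPKM in the controls, 814, 682 and 693 with competent medium, and 810.5, 569 and 632 with arrested medium. The ranges of the 3 groups lay almost on top of each other. The difference was -0.12 ± 0.19 for arrested minus control (95% interval -0.55 to 0.31), 0.01 ± 0.19 for competent minus control (-0.41 to 0.44) and -0.13 ± 0.19 for arrested minus competent (-0.56 to 0.29). Its coefficient of variation was 14.6%.

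Krt18, the usual partner of Krt8, showed the smallest unadjusted p of the members. It was at 358, 349 and 428 FPKM in the controls, 419, 331 and 307 with competent medium, and 564, 356 and 517 with arrested medium. Arrested libraries 1 and 3 were above all 6 other libraries, while arrested library 2 lay among them. Arrested minus competent was 0.43 ± 0.20 (95% interval -0.03 to 0.89) with an unadjusted limma p of 0.0647 and an adjusted p of 0.491, and arrested minus control was 0.32 ± 0.20 (-0.14 to 0.78, limma adjusted p = 0.904). Leaving out arrested library 2 raised these to 0.63 (limma adjusted p = 0.231) and 0.52 (0.534), which still did not pass. Competent minus control was -0.11 ± 0.20.

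Krt14, the basal type I keratin and partner of Krt5, was low and uneven. It was at 0.185, 0.673 and 0.442 FPKM in the controls, 0.613, 0.374 and 3.72 with competent medium, and 0.262, 1.42 and 1.02 with arrested medium. Competent library 3 stood above the rest, on a value that corresponds to about 80.0 fragments, against 3 to 29 in the other 8 libraries. The groups overlapped, and the gene was not tested because its mean lay below 1 FPKM. Krt5, its partner, was at 0.355 FPKM in that library, within the range of the other competent libraries. The 6 markers of mesothelium, the outer surface layer of the uterus, had their highest sum there. That sum was 170 FPKM, against 45.6 to 121 in the other libraries. It was picked out after the values were seen, and any link to Krt14 was not tested. Trp63, the transcription factor that defines basal epithelial cells, was at 0 to 0.428 FPKM over the 9 libraries. Together Krt5 and Krt14 made up 0.0106 to 0.209% of the summed FPKM of the 7 genes, so the measure rests on simple epithelial genes.

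Since type I and type II keratins pair, their ratio was examined within libraries. Krt8 over Krt18 was 1.78, 1.86 and 1.17 in the controls, 1.58, 1.77 and 1.89 with competent medium, and 1.33, 1.45 and 0.712 with arrested medium. All 3 arrested values were below all 3 competent values, and the arrested and control values overlapped. The ratio was formed after the levels were seen. For arrested against competent, an exact two-sided permutation test of its log2 gave p = 0.1. This is the smallest value that 3 libraries against 3 can give. It follows from the separation already seen and shows no more than the separation itself. Single genes separated between arrested and competent libraries in 16.5% of cases. The same permutation test gave p = 0.3 for arrested against control and p = 0.7 for competent against control. Arrested library 3 was the only one with more Krt18 than Krt8. Over all 6 keratins, type II over type I was 0.733 to 0.865 in 8 libraries and 0.522 in arrested library 3.

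**Figure D3:**
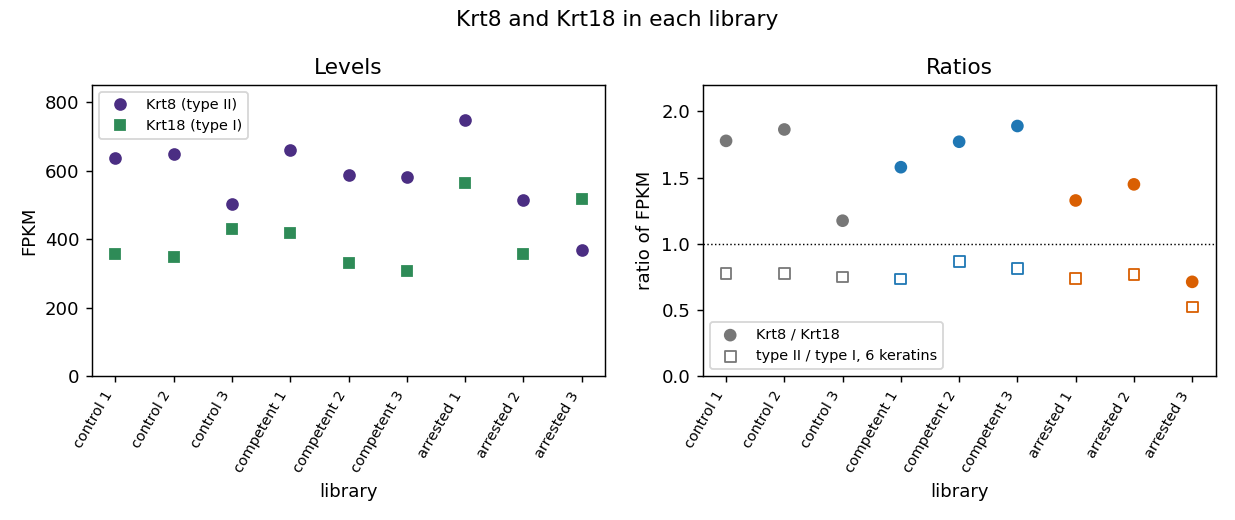
Left, FPKM of Krt8 (circles) and Krt18 (squares) in each of the 9 libraries; right, the Krt8 to Krt18 ratio (filled, coloured by group) and the summed type II to type I ratio of 6 keratins (open), with a dotted line at 1. The Krt8 to Krt18 ratio lies between 1.17 and 1.89 in 8 libraries and at 0.712 in arrested library 3.

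Epcam had the widest spread of the 5 tested genes. Its annotated transcript was at 100.2, 93.0 and 60.1 FPKM in the controls, 91.1, 114 and 134 with competent medium, and 85.1, 71.4 and 163 with arrested medium. The groups overlapped, and arrested library 3 was the highest of all. The differences were 0.43 ± 0.33 for competent minus control (95% interval -0.33 to 1.19), 0.27 ± 0.33 for arrested minus control (-0.49 to 1.03) and -0.16 ± 0.33 for arrested minus competent (-0.92 to 0.60), with limma adjusted p of 0.955, 0.928 and 0.913. Its coefficient of variation, 31.4%, was above that of 82.8% of those 1156 genes.

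Part of the Epcam signal sat outside the annotated transcript. The authors' assembly listed further Epcam transcripts in 8 of the 9 libraries and none in arrested library 3. In 5 of them, control libraries 1 and 2, competent libraries 1 and 2 and arrested library 1, the assembled transcript began with an exon of 23 to 78 bases inside annotated intron 2 and then held 8 of the 10 annotated exons. The 30 bases around its splice donor are given with those of the annotated donor, because that is where the assembled transcript departs from the annotated one. Each shows 20 exon bases and 10 intron bases of the plus strand of NCBIM37, with the first 2 intron bases in capitals.
Annotated exon 2, chr17:88036215-88036244: gctggccgcggctcagagagGTgaggcgtg
Assembled first exon, chr17:88036607-88036636: ggacttactggccgccggagGTgtgttttt
The assembled donor lies 392 bases beyond the annotated one, and both have GT as the first intron bases, the usual start of an intron.

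With the assembled transcripts added, Epcam was at 169, 175 and 148 FPKM in the controls, 237, 264 and 182 with competent medium, and 174, 102.2 and 163 with arrested medium. All 3 competent values were then above all 6 others. On this scale 6.97% of genes were wholly higher in competent than in control libraries, and 9.45% wholly lower in arrested than in competent libraries. The limma differences were 0.46 for competent minus control (adjusted p = 0.919) and -0.65 for arrested minus competent (adjusted p = 0.325), neither past the threshold. Arrested minus control changed sign, from 0.27 with the annotated transcript to -0.19, and it was -0.08 with the annotated transcript when arrested library 3 was left out.

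**Figure D4:**
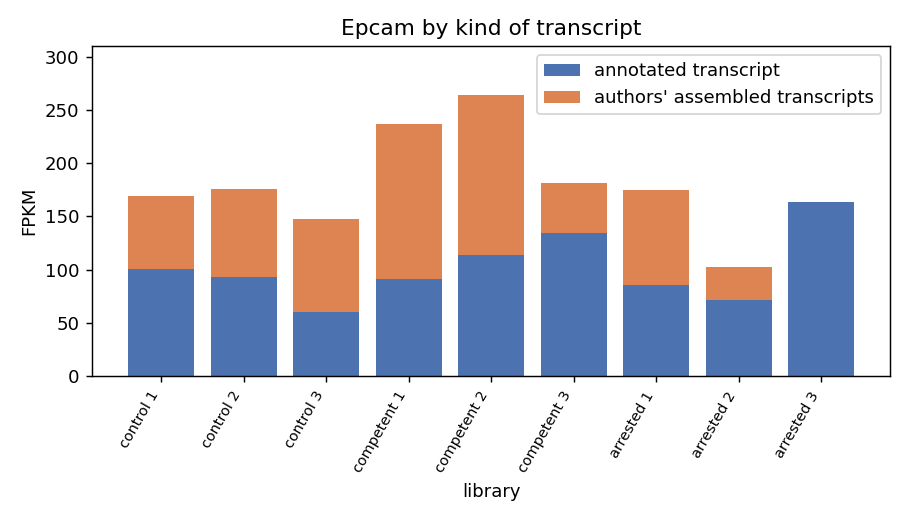
Stacked bars of Epcam FPKM in each of the 9 libraries, from 0, for the annotated transcript (lower part) and the authors' assembled transcripts (upper part). The 3 competent libraries reach 182 to 264 FPKM in all, and arrested library 3 has no assembled part.

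As a measure of the epithelial share, the 7 genes gave nearly the same mean summed FPKM in each group. Their summed FPKM was 2113, 2196 and 1816 in the controls, 2229, 2003 and 1953 with competent medium, and 2473, 1706 and 1914 with arrested medium. Group means were 2042 ± 200 (SD, n = 3), 2062 ± 147 (n = 3) and 2031 ± 397 (n = 3), so the means differed by far less than the spread within groups, and the arrested group had the widest spread. As a share of all protein-coding FPKM the sum was 0.223 to 0.312%, with the lowest value in arrested library 2 and the highest in competent library 1. Mean shares were 0.272 ± 0.030% (SD, n = 3) in the controls, 0.289 ± 0.021% with competent medium and 0.253 ± 0.028% with arrested medium. The arrested mean was thus the lowest, and the ranges of the groups overlapped. No test was made of the sum or of its share, because the genes were picked with earlier results known.

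Markers of other cell types varied more than this sum. The 10 simple epithelial markers fixed for the check, which include 5 of the members, summed to 2283 to 3348 FPKM, and none was at 0 in all libraries. Stromal markers (10 genes, among them Hoxa10 and Hoxa11, homeobox genes of the uterus, both detected in every library) summed to 1543 to 3029, with the highest sum in arrested library 2, the library with the lowest keratin sum. Smooth muscle markers (8 genes) summed to 881 to 2782, lowest in arrested library 1, the library with the highest keratin sum. The lowest stromal and the highest smooth muscle sum were both in competent library 2, whose keratin sum of 2003 was the median of the 9. The 6 adipocyte markers summed to 1.00 to 138 FPKM in 8 libraries and to 920.0 in arrested library 2. The 7 glandular markers summed to 3.65 to 30.8 in 8 libraries and to 246 in arrested library 3. Spink3, Prss29 and Prss28, at 112, 110 and 21.8 FPKM, made up most of that high sum. In the same library Foxa2, a gland transcription factor, was at 1.31 FPKM, Cxcl15 at 0.201 and Sox9 at 0. Ttr was at 0 throughout. Ovgp1, the oviduct glycoprotein, was listed at 0 in 8 libraries and at 40.5 FPKM in arrested library 3. Of the 14 marker lists, 4 had groups that did not overlap, each in 1 of the 3 comparisons. Among all genes tested such separation was seen for 8.84% in arrested against control and 14.8% in competent against control. For arrested against competent it was 16.5%. Those shares are for single genes and not for sums, and the 4 lists are described without a test. Luminal uterine epithelium summed to 1923 to 2893 FPKM in the controls, 2778 to 3742 with competent medium and 1393 to 2284 with arrested medium, so the arrested libraries lay below the competent ones; without Ltf (lactoferrin), its most abundant gene, these groups overlapped. Blood genes summed to 557 to 894 in the controls, 429.5 to 2305 with competent medium and 1194 to 2788 with arrested medium, which lay above the controls. Leukocyte genes were lower with arrested medium (34.7 to 50.8) than with competent medium (58.8 to 66.5), and endothelial genes lower with competent medium (29.7 to 43.2) than in the controls (43.6 to 45.6). Their part in the epithelial identity values given further on, and the part of these cell types in the low Krt8, high Epcam and low ratio of arrested library 3 was not tested. On the first principal component of all tested genes (16.6% of the variance) that library was at 90.7 and the other 8 between -25.1 and 4.83.

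**Figure D5:**
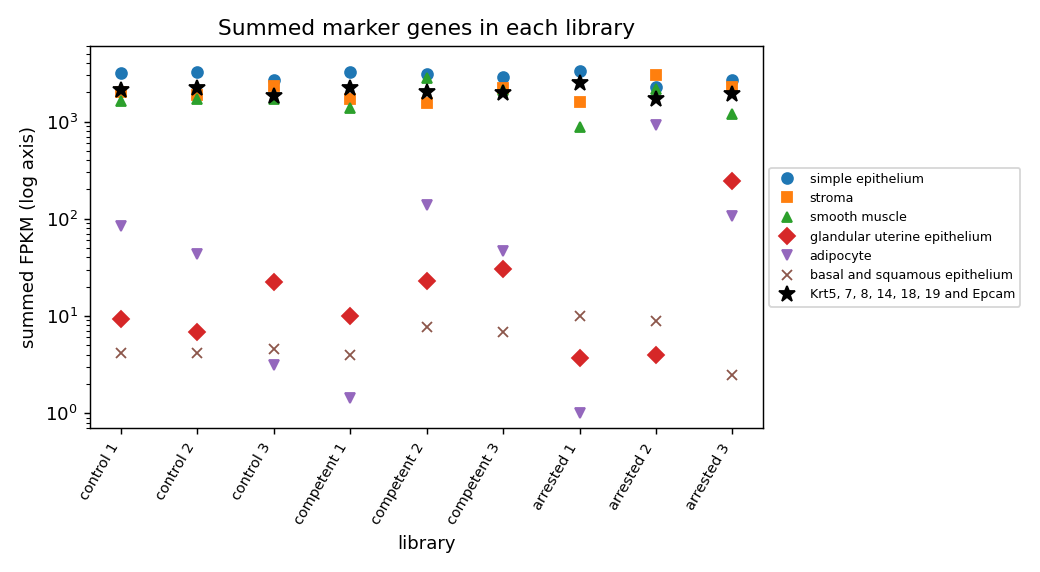
Summed FPKM on a log axis, in each of the 9 libraries, of the 7 genes (stars) and of 6 marker lists. The stars stay between 1706 and 2473, while the adipocyte sum reaches 920.0 in arrested library 2 and the glandular sum 246 in arrested library 3.

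The rest of the keratin family was low. Of 44 other keratin genes, 38 had a mean under 1 FPKM and 7 of these were at 0 in all libraries. The 6 of highest mean were Krt80 at 3.37, Krt23 at 2.04, Krt83 at 1.94, Krt15 at 1.66, Krt13 at 1.13 and Krt10 at 1.13 FPKM, and none of the 6 passed the limma threshold in any comparison. Krt23, a type I keratin, was at 0.338 to 2.37 FPKM in 8 libraries and at 10.7 in arrested library 3, the library in which type I exceeded type II most. The 18 basal and squamous genes, which include other keratins, were also low, with 11 under 1 FPKM and 0 of 7 called. Their 3 of highest mean were Lgals7, a galectin of stratified epithelium, at 4.94 to 125.7 FPKM, and Itga6 and Itgb4, which together form the integrin of hemidesmosomes, at means of 35.0 and 14.9.

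Other epithelial identity genes were compared with the keratins. Of 25 such genes, all tested, 0 were called in any comparison. The highest were Cd24a, a surface glycoprotein, at 1142 FPKM, Spint2, an inhibitor of membrane proteases, at 763, and Cldn7, a claudin, at 347. Their median difference was -0.09 for arrested minus control, beside -0.02 for all genes tested, and -0.07 for arrested minus competent, beside -0.01. At an unadjusted p under 0.05 there were 7 of 25 for arrested minus control (1 higher, 6 lower), where 5.26% of all genes had such a p. There were 8 of 25 for arrested minus competent (2 higher, 6 lower), beside 10.9% of all genes. For competent minus control there were 0 of 25, beside 5.17%. The gene lists were chosen with earlier results of these data known, so such counts are a description and no test of a list.

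Levels of these genes were also set against the keratin and Epcam sum of the same library. On that scale 5 of the 25 had all 3 arrested values below all 6 others, beside 1.41% of all genes tested. The same count was reached with unscaled FPKM. The share over all genes was not computed there, but it cannot exceed the 5.36% of genes that lay wholly below the controls. As the list was chosen with earlier results known, these counts are no test of it. Elf3, Muc1 and Cdh1 are 3 of those 5 and were singled out after their values were seen; Esrp1 and Ovol2 are the others. The 3 genes of highest mean did not separate in this way. Elf3, an epithelial transcription factor, stood at 150, 171 and 176 FPKM per 1000 FPKM of the 7 genes in the controls, 173, 123 and 206 with competent medium, and 48.3, 76.4 and 83.4 with arrested medium. Muc1, a mucin of the luminal surface, ranged from 93.2 to 136 per 1000 in the 6 other libraries and from 22.8 to 64.8 in the arrested ones. Cdh1, the adherens junction cadherin, ranged from 65.0 to 84.5 and from 49.7 to 61.1. Cd24a ranged from 428 to 517 per 1000 in the arrested libraries, 474 to 574 in the controls and 606 to 700.2 with competent medium. Cldn7 ranged from 118 to 159 with arrested medium, 146 to 248 in the controls and 169 to 200.5 with competent medium. Spint2 averaged 375 with arrested medium, 366 in the controls and 395 with competent medium. The unscaled FPKM of none of the 25 passed the limma threshold, the smallest adjusted p over the 25 genes being 0.113 (Elf3, arrested minus competent).

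Keratin filaments are anchored at desmosomes, whose genes were compared next. Of 15 linker genes matched, 11 were tested and 0 called. Perp, Jup (plakoglobin) and Pkp4 (a plakophilin relative) were highest, at 73.8, 50.5 and 29.99 FPKM. At an unadjusted p under 0.05 there were 0 of 11 for arrested minus control, 1 of 11 for competent minus control and 4 of 11 for arrested minus competent, 3 of these 4 lower, beside 5.26, 5.17 and 10.9% of all genes. A list of 11 genes chosen as keratin partners and turnover genes also gave 0 calls. Being on this list is no evidence that a protein binds or modifies keratin. Krtcap2 (a keratinocyte-associated protein), Ywhaq (a 14-3-3 protein) and Hspb1 (a small heat shock protein) led it at 203, 153 and 135 FPKM. At an unadjusted limma p under 0.05 there were 1 of 11, 0 of 11 and 2 of 11, in the same order of comparisons and beside the same shares. Among 12 genes of other intermediate filaments 8 were tested and 0 called. At that unadjusted p there were 0 of 8, 1 of 8 (higher) and 1 of 8 (lower), again in that order and beside those shares. Vim, the vimentin of stroma, was at 258 to 723 FPKM, Des, the desmin of muscle, at 30.5 to 121 and Lmna, a nuclear lamin, at 37.8 to 73.0.

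The genes whose profile over the 9 libraries was closest to a member were taken by the root mean square (RMS) difference of centred log2(FPKM + 1). For Krt8 the closest were Ppp1r11 (0.0816), Slc25a5 (0.0916) and 4833442J19Rik (0.0998), among 9952 candidate genes. For Krt18 they were Stx18 (0.0977), Fam107b (0.114) and 2410004N09Rik (0.134), and the lists of the 3 nearest share no gene between these partners. For Krt19 they were Fam60a, Tsnax and Zfp773 (0.0722 to 0.0818), and for Krt7 Gm11224, Eif1ad and Samm50 (0.0640 to 0.0757). Epcam was nearest to Gjb1, a gap junction connexin (0.115), Hist1h2bc (0.132) and Noc4l (0.164). For the low genes the nearest were Usp7, Ppp1r3d and Actb for Krt5 (0.0715 to 0.0804) and Mmp17, Trpc6 and Tm4sf5 for Krt14 (0.234 to 0.245). No other keratin was among these genes. The points of such a profile share library depth and composition, and the likeness is a description with no test.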

How the data were processed

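RNA of 9 mouse uterus libraries (3 groups of 3) was sequenced. Per the submitters' processing notes, the tools were Bowtie 0.12.2 and Cufflinks with mm9; the sources used here do not state their options, strand or the handling of reads that match several sites. The authors deposited, per transcript, FPKM with interval ends and a coverage signal, the mean read depth; coverage was proportional to FPKM within a library and amounted to 1303 to 2471 Mb. The interval ends imply 10500000 to 19000000 fragments per library, as an estimate. Control library 1 had no header, so its columns were taken by position. Of 92839 annotated transcripts per library, 1356 were not in GENCODE vM1 (NCBIM37), and 11 not listed in every library were left out; 97.4% had the same coordinates.

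Gene values were sums of FPKM over annotated transcripts, unscaled. The exon coverage alternative divides annotated and assembled FPKM times length by exon length. The 13333 genes averaging 1 FPKM or more entered 1 limma 3.58.1 fit (R 4.3.3) on log2(FPKM + 1), with group means, a mean trend and 8.07 total degrees of freedom, and Benjamini-Hochberg adjustment over all genes per contrast. The log2(FPKM + 1) scale understates changes of low genes. Exact permutation tests used scipy 1.17.1, and look-alike loci blastn 2.17.0. The fit was tested on simulated data. Named genes were the 7 members, the 6 other keratins and 3 genes per list of highest mean, any called gene, and the 3 nearest profiles per member. Outside that rule, Elf3, Muc1, Cdh1, Esrp1, Ovol2, Nlrp4e and the marker genes Trp63, Foxa2, Ttr, Ltf, Ovgp1, Hoxa10 and Hoxa11 were named after values were seen. So were the marker genes Itgam, Spink3, Prss28, Prss29, Cxcl15 and Sox9. Members and lists were chosen with earlier results of these data known. Alternatives changed the gene value, pseudocount, filter, scaling, fit and libraries.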

Additional observations from a re-analysis of the deposited data

Results flagged for a closer look

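Assembled transcripts of 2 members, which the gene values leave out, stood above every control library in some of the treated libraries. For Krt7 an assembled transcript was listed at 82.5 FPKM in arrested library 3, against 0 in all 3 controls. It joins 9 exons of Krt7 to a stretch of 163 bases in exon 7 of Krt5, whose annotated transcripts were listed at 0 in that library. For Epcam the assembled transcripts summed to 146 FPKM in competent library 1, 150.4 in competent library 2 and 89.2 in arrested library 1, against at most 87.4 in the controls. The excess of arrested library 1 over the highest control is small beside the spread of the controls. Other treated libraries lay below every control (68.6 to 87.4): competent library 3 at 47.7 FPKM, arrested library 2 at 30.8 and arrested library 3 at 0.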

How the results depend on the processing

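None of the 5 tested genes passed the limma threshold in any of the 3 comparisons under any of the 21 alternatives. Krt5 and Krt14 were tested only without the filter on low values and did not pass there. The smallest adjusted p over them was 0.534 for arrested minus control (Krt18), 0.696 for competent minus control (Epcam) and 0.231 for arrested minus competent (Krt18). With the replicate number as a block, 0 of the members were called in each comparison. Calls over all genes then went from 18 to 4 for arrested minus competent and from 5 to 1 for competent minus control. The labels do not say whether the numbers pair the libraries. Deviations from the group means correlated at -0.0516 to 0.0959 for the same number and -0.0937 to 0.0819 for different numbers, which does not settle it.

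Several small differences changed sign. Epcam, arrested minus control, was -0.19 with assembled transcripts and -0.14 by exon coverage, which also counts assembled transcripts, and ranged from -0.080 (without arrested library 3) to 0.51 when 1 library was left out. Epcam, arrested minus competent, ranged from -0.51 to 0.081, the latter without arrested library 2. Krt8 ranged from -0.44 to 0.069 for arrested minus control and from -0.48 to 0.031 for arrested minus competent, the highest values without arrested library 3. For competent minus control, Krt7 was -0.063 by its transcript of highest mean and ranged from -0.081 to 0.071, Krt8 from -0.080 to 0.10 and Krt19 from -0.15 to 0.12. By exon coverage the summed FPKM was 1801 in the control and 1852 in the competent group; the low share of Krt7 on that scale lowers it by construction.

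Over all genes, calls for arrested minus control were 3 by the transcript of highest mean, 1 without failed zeros and 7 to 24 with 1 library left out, against 6. For competent minus control they were 2 with assembled transcripts, 1 by exon coverage, 2 with a pseudocount of 5, 3 without failed zeros, 8 with no filter, 12 with 2 groups only and 4 to 16 with 1 library left out, against 5. For arrested minus competent they were 11 by the transcript of highest mean, 58 by exon coverage, 11 without failed zeros, 12 with no filter, 33 with 2 groups only, 10 with no trend and 12 to 43 with 1 library left out, against 18. The cause was not tested. Depth limits Krt5 and Krt14, which rest on 0 to 10 and 3 to 80 fragments.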
